A study of Mus musculus with 36 samples.

Results

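The genes described here are 10 markers of homeostatic microglia, the resting state of these brain macrophages in the healthy adult: P2ry12, P2ry13, P2ry6, Gpr34, Cx3cr1, Csf1r, Tmem119, Siglech, Olfml3 and Sall1. They were looked up by gene symbol, and all 10 were among the 15385 genes listed for microglia. Of these 10, 7 were also among the 14551 genes listed for astrocytes, where P2ry13, Gpr34 and Siglech had no entry. A filter on low values kept 9 of the 10 for testing in microglia, all but Siglech, and 6 of the 7 in astrocytes, all but P2ry12.

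The study asked which gene expression in glia depends on the kinase activity of RIPK1. Cells came from pooled brains of 2 to 4 day old C57BL/6 pups. Mixed glia were grown for 12 days, microglia were selected by their surface CD11b and astrocytes were then taken from the fraction left behind. After treatment for 4 h, polyadenylated RNA was sequenced. Microglia were given DMSO as vehicle, or Nec-1s, which inhibits the kinase of RIPK1. T/5z denotes TNF plus 5z-7, an inhibitor of TAK1, and T/S/Z denotes TNF plus a Smac mimetic plus zVAD, which blocks caspases. A final N denotes that Nec-1s was present as well, as in T/5z/N. These 6 microglial groups had 4 libraries each. Astrocytes had 4 groups of 3 libraries, namely DMSO, Nec-1s, T/S/Z, and its counterpart T/S/Z/N. In microglia T/5z serves as a stimulus for RIPK1-dependent apoptosis and T/S/Z as a stimulus for necroptosis. Cell death was not part of these tables in either cell type, and no such outcome is assumed for astrocytes. All groups were wild-type cells in culture, and neither table holds cells taken directly from a brain.

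Microglia hold their homeostatic program through signals from other brain cells, above all TGF-beta, CSF1 or IL-34 and fractalkine, and through transcription factors that include Sall1. The program includes purinergic receptors that sense nucleotides released by neurons and by damaged cells and that steer the processes of the microglial cell. Many of its genes are known to drop within days in culture and during inflammatory activation, whereas Csf1r is expressed by nearly all macrophages.

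Values are the deposited log2(FPKM + 1), in which FPKM is the number of fragments per kilobase of exon scaled to library size. Microglial replicates 1 to 3 had been adjusted gene by gene, so that each gene's average across treatments matched that of replicate 4 to within 6.67e-05. If this was a shift alone, differences between treatments within a replicate keep their size, but whether they were also rescaled was not tested. Level differences between whole replicates no longer enter the spread between replicates of a group, which can therefore be smaller than it was before. The tables held no counts, and the steps between low values put 1 step at 0.0396 to 0.055 FPKM for 1 kb of exon in the microglial libraries of replicate 4. Summed over 15 pan-myeloid markers, FPKM was between 16746 and 20910 in the 24 microglial libraries. A gene was called changed when its fold change was over 1.5 and its adjusted p under 0.05 (limma, paired by replicate number, Benjamini-Hochberg over all genes tested). Fold changes are ratios of FPKM + 1. Because this is RNA from whole wells, fewer cells that express a gene and less RNA per cell cannot be told apart.

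In microglia given only DMSO, the mean levels of the 10 genes ran from 928 FPKM down to 0.0797 FPKM. On the linear scale, per length of exon, Csf1r, the receptor for CSF1 and IL-34 that keeps microglia alive, was highest with 928 ± 22.9 FPKM (SD, n = 4). Cx3cr1, the receptor for the neuronal chemokine fractalkine, had 252 ± 2.9 FPKM. P2ry6, a receptor for UDP linked to phagocytosis, had 99.9 ± 3.3 FPKM. These 3 stood at percentiles of 99.7, 98.3 and 95.7 among all listed genes. Olfml3, a secreted olfactomedin-like protein, followed with 50.5 ± 2.4 FPKM, Gpr34, a receptor for lysophosphatidylserine, with 14.4 ± 2.6 FPKM and Tmem119, a membrane protein used to tell microglia from other macrophages, with 9.04 ± 1.42 FPKM. P2ry12, the ADP receptor most often used to mark microglia in tissue, had 4.27 ± 0.62 FPKM, which was close to the median gene (percentile 50.3). P2ry13, also an ADP receptor, had 1.96 ± 0.57 FPKM, and Sall1, the zinc finger factor of microglial identity, had 1.94 ± 0.19 FPKM. Each neighbouring pair in this order was separate in all 4 libraries, except P2ry13 and Sall1, whose values overlapped. Gene averages of replicates 1 to 3 had been matched to replicate 4, so these are not 4 independent readings of the order.

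Siglech, a sialic acid-binding lectin that marks microglia among macrophages, was close to 0 in every library. Its log2 values were 0.13, 0.05, 0.18 and 0.08 in DMSO, and over all 24 libraries they ran from 0.00 to 0.23. In the 6 libraries of replicate 4 these values correspond to 0 to 13.5 steps of the scale, so that a decrease of Siglech was not detectable at these levels, and no group rose to the level the filter required. The cultured cells thus carried the pan-myeloid markers and Csf1r at high levels, P2ry12 and Sall1 at low levels, and 1 of the 10 defining genes near 0. The 5 listed markers of border macrophages or monocytes summed to 910 to 961 FPKM in DMSO, beside 17780 to 19386 for the 15 pan-myeloid markers. Which cells carried them was not tested.

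**Figure D1:**
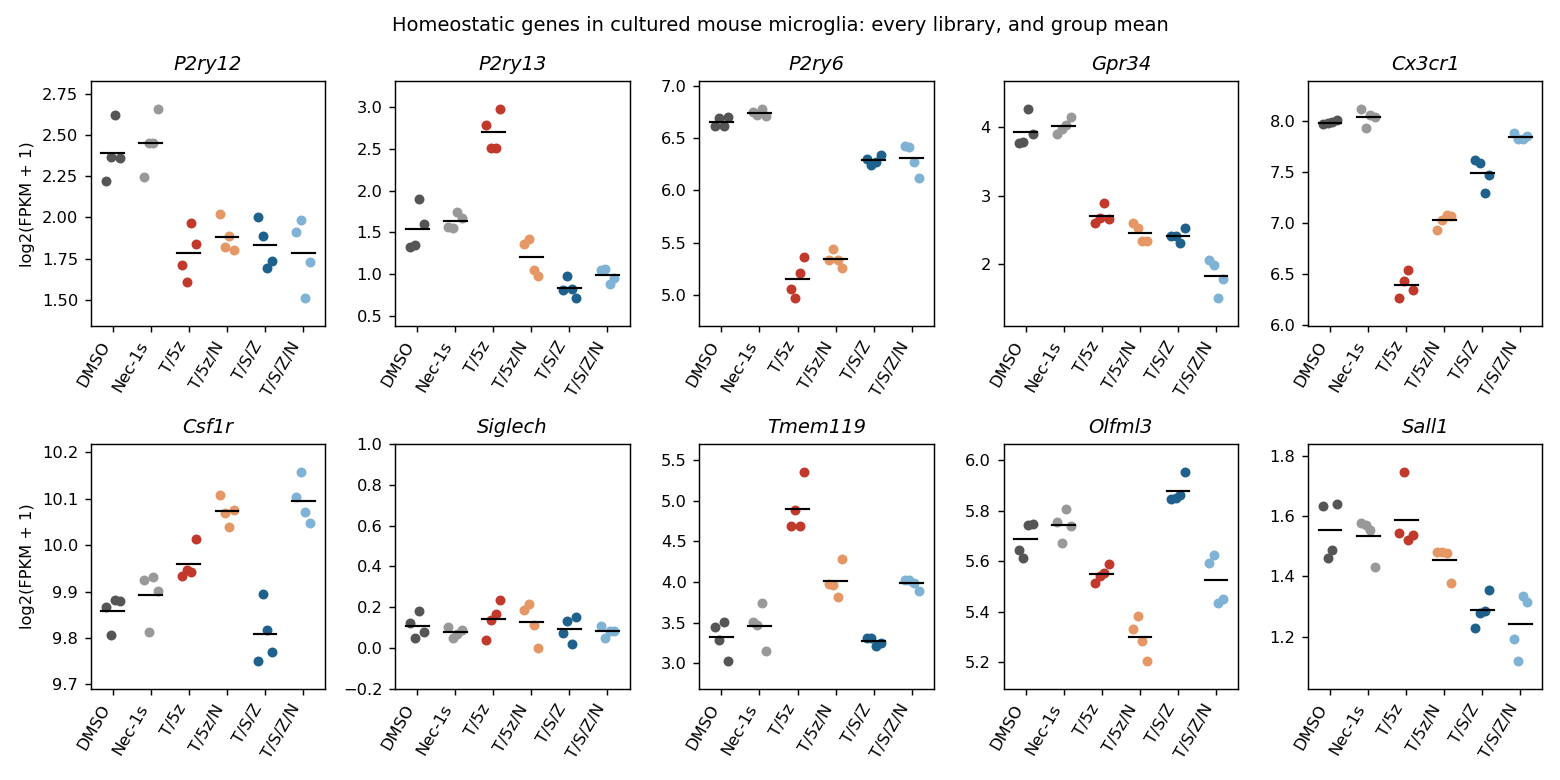
Deposited log2(FPKM + 1) of the 10 genes in the 24 microglial libraries. Each point is a library, ordered by replicate 1 to 4 within a group, and bars are group means. Vertical axes differ between panels and do not start at 0. P2ry13 and Tmem119 stood highest after T/5z, whereas P2ry6, Gpr34 and Cx3cr1 stood highest in DMSO and Nec-1s.

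Of the 9 genes tested, T/5z lowered 4 and raised 2. Cx3cr1, P2ry6, Gpr34 and P2ry12 fell, Tmem119 and P2ry13 rose, and Csf1r, Olfml3 and Sall1 were not called. Among all 10524 genes tested, 24.4% were called in this comparison, 13.3% lower and 11.1% higher. Of all genes called after T/5z, 45.5% were higher, and 53.6% with median centring. After T/S/Z, 2 of the 9 fell, Gpr34 and P2ry13, and none rose, against 29.6% of all genes called, 17.5% lower and 12.2% higher. Of all genes called after T/S/Z, 41.1% were higher, and with each library centred on its median the figure was 52.7%. The median log2 change of the 9 after T/5z was -0.14, and after T/S/Z it was -0.37, beside -0.06 and -0.08 over all genes tested. Both comparisons use the same 4 DMSO libraries, so their values are given side by side.

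P2ry12 and P2ry13 lie side by side on chromosome 3, with 5389 bases between their gene models and both on the minus strand. P2ry12 (ENSMUSG00000036353) is at chr3:59216272-59262871 and P2ry13 (ENSMUSG00000036362) at chr3:59207892-59210882. Both lie within Med12l, a gene on the opposite strand whose own group means in microglia were at most 0.10 on the log2 scale. The sequences upstream of their RefSeq starts are printed because these neighbours moved in opposite directions after T/5z. Each line gives the 250 bases before the start, 5′ to 3′ on the gene's strand, from RefSeq on GRCm38.p6. P2ry12 is chr3:59262986-59263235 and P2ry13 is chr3:59210883-59211132. Capitals mark motif matches.
P2ry12: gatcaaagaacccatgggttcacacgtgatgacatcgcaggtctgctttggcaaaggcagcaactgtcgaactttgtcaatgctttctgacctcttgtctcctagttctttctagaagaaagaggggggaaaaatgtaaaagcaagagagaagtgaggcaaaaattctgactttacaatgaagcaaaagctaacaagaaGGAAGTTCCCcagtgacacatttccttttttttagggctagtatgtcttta
P2ry13: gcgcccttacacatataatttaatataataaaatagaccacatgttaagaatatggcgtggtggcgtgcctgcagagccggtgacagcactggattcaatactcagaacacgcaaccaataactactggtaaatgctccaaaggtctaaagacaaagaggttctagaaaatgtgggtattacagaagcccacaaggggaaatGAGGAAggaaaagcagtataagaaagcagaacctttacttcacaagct
Searched on both strands were GAGGAA, the core bound by the myeloid factor PU.1, GGG followed by any 3 bases and TTCC, a form of the NF-kappaB site, and TGANTCA, the AP-1 site. The P2ry12 stretch held 1 match to the NF-kappaB form, read on the opposite strand and starting at base -51. The P2ry13 stretch held 1 match to the PU.1 core at base -48. Neither held an AP-1 match. Of 32851 mouse promoters of the same length, 23.3% held the PU.1 core, 4.65% the NF-kappaB form and 6.75% the AP-1 site, so a match is a description of the letters only. Promoter sequences were at hand for 6 of the 10 genes, and the stretches of Cx3cr1, Siglech, Olfml3 and Sall1 held none of these motifs.

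P2ry13 and P2ry12 responded differently to T/5z. P2ry13 stood at 1.33, 1.35, 1.90 and 1.60 in DMSO and at 2.79, 2.52, 2.51 and 2.98 after T/5z, so that the groups did not overlap. The log2 change was 1.15 (SE 0.14, limma adjusted p = 3.64e-04), higher in 4 of 4 pairs. P2ry12 stood at 2.22, 2.36, 2.62 and 2.36 in DMSO and at 1.71, 1.61, 1.96 and 1.84 after T/5z, also without overlap. Its log2 change of -0.61 (SE 0.07, limma adjusted p = 3.38e-04) lay just past the fold minimum. The P2ry12 call was lost with median centring (-0.54), when 5 was added before the log (-0.31), with quantile normalization (-0.47) and without replicate 2 (-0.56), because the value then fell under the fold minimum.

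Both ADP receptors stood below DMSO after T/S/Z. P2ry13 was at 0.80, 0.98, 0.82 and 0.71, below every DMSO library, a log2 change of -0.72 (SE 0.13, limma adjusted p = 0.00153). This call was lost when 5 was added before the log (-0.26) and under quantile normalization (-0.58). P2ry12 was at 2.00, 1.89, 1.69 and 1.73, again below every DMSO library. Its change of -0.56 (SE 0.12, limma adjusted p = 0.00291) fell short of the fold minimum and so was not called, but it was past that minimum without replicate 1 (-0.68) and without replicate 2 (-0.59). Between the stimuli P2ry13 was 1.87 lower on the log2 scale after T/S/Z than after T/5z, a value of -1.87 (SE 0.13, limma adjusted p = 5.34e-05), while for P2ry12 the difference was 0.05 with a 95% interval from -0.22 to 0.32.

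Nec-1s also separated the neighbours. With Nec-1s added to T/5z, P2ry13 was at 1.36, 1.42, 1.04 and 0.98, below every T/5z library. This was a log2 change of -1.498 (SE 0.13, limma adjusted p = 5.83e-05), and it amounted to 130% of the rise, since the group mean ended below DMSO. The remaining difference from DMSO, -0.35, was not called (limma adjusted p = 0.126). P2ry12 was at 2.02, 1.82, 1.89 and 1.80 in T/5z/N, overlapping T/5z, and the change of 0.10 (95% interval -0.10 to 0.30) took back 16.4% of its fall. With Nec-1s added to T/S/Z, P2ry13 differed by 0.16 (95% interval -0.04 to 0.35) and P2ry12 by -0.05 (95% interval -0.22 to 0.13). The effect of Nec-1s on P2ry13 differed between the stimuli by -1.66 (SE 0.16, limma interaction, adjusted p = 8.01e-06).

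P2ry6 (chr7:100937630-100964391, minus strand) belongs to the same receptor family but recognises UDP. It stood at 6.61, 6.69, 6.62 and 6.70 in DMSO, at 5.06, 4.97, 5.21 and 5.36 after T/5z and at 6.30, 6.24, 6.27 and 6.33 after T/S/Z. Both stimulated groups lay below all DMSO libraries, and T/5z lay below all T/S/Z libraries. The fall after T/5z was called with a log2 change of -1.51 (SE 0.07, limma adjusted p = 3.85e-06), a 2.84-fold decrease. After T/S/Z the change was -0.37 (SE 0.05, limma adjusted p = 2.62e-04), under the fold minimum, and under quantile normalization it was -0.65. The direct difference between the stimuli was 1.14 (SE 0.06, limma adjusted p = 2.77e-05). Nec-1s left P2ry6 low, at 5.33, 5.44, 5.33 and 5.26 in T/5z/N, which took back 12.6% of the fall, and in T/S/Z/N the values of 6.42, 6.41, 6.27 and 6.12 overlapped those of T/S/Z.

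Gpr34 (chrX:13632089-13640858, plus strand) fell after both stimuli, and its further fall with Nec-1s was called after T/S/Z but not after T/5z. It stood at 3.77, 3.78, 4.26 and 3.91 in DMSO, at 2.60, 2.68, 2.90 and 2.66 after T/5z, and at 2.41, 2.42, 2.32 and 2.53 after T/S/Z. No stimulated library reached a DMSO library. The log2 changes were -1.22 after T/5z (SE 0.06, limma adjusted p = 6.05e-06) and -1.51 after T/S/Z (SE 0.11, limma adjusted p = 1.16e-05). Gpr34 lies within Cask, a gene of the opposite strand.

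With Nec-1s added, Gpr34 was at 2.61, 2.53, 2.34 and 2.33 in T/5z/N and at 2.06, 1.98, 1.504 and 1.78 in T/S/Z/N. The T/S/Z/N libraries lay below all T/S/Z libraries, whereas T/5z/N and T/5z overlapped. The change with Nec-1s after T/S/Z was -0.59 (SE 0.09, limma adjusted p = 0.00124), and after T/5z it was -0.26 (SE 0.09, limma adjusted p = 0.0459), under the fold minimum. The former call was lost without replicate 3 (-0.51), without replicate 4 (-0.53) and with 5 added before the log (-0.30), and the difference between these effects, 0.33, was not called (limma interaction, adjusted p = 0.122). T/S/Z/N held the lowest group mean of Gpr34, with a log2 change from DMSO of -2.10 (SE 0.16, limma adjusted p = 3.92e-05). This was a 4.28-fold decrease of FPKM + 1, with mean FPKM at 14.4 in DMSO and 2.60 in T/S/Z/N.

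Cx3cr1 (chr9:119901616-120069879, minus strand) fell 3.00-fold after T/5z, the largest fall among the 9 genes in that comparison. It stood at 7.96, 7.97, 7.98 and 8.00 in DMSO and at 6.26, 6.44, 6.54 and 6.34 after T/5z, a log2 change of -1.59 (SE 0.06, limma adjusted p = 1.28e-06). After T/S/Z it was at 7.62, 7.59, 7.29 and 7.47, between DMSO and T/5z with no overlap. That change of -0.49 (SE 0.06, limma adjusted p = 2.67e-04) was under the fold minimum, but under quantile normalization it was -0.92 and past it. The difference between the stimuli was 1.10 (SE 0.09, limma adjusted p = 1.42e-04).

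The rise of Cx3cr1 when Nec-1s was added to T/5z was called. The values were 6.93, 7.03, 7.07 and 7.07 in T/5z/N, above every T/5z library and below every DMSO library. The rise of 0.63 (SE 0.04, limma adjusted p = 1.95e-05) took back 39.7% of the fall and left a difference from DMSO of -0.96 (SE 0.05, limma adjusted p = 2.37e-06). With median centring the rise was 0.58, just under the fold minimum. After T/S/Z, Nec-1s brought Cx3cr1 to 7.88, 7.82, 7.83 and 7.85, above every T/S/Z library, a change of 0.35 (SE 0.06, limma adjusted p = 0.00180) that was under the fold minimum and was 0.61 under quantile normalization. The gene model of Cx3cr1 overlaps 9 other genes in whole or in part, which include Wdr48, Gorasp1 and Csrnp1, and reads of an overlapping gene cannot be told apart where the counting did not use strand. The deposited annotation put an undefined mark, confounded, on P2ry12, P2ry13, P2ry6, Gpr34, Cx3cr1 and Csf1r, and Csf1r overlaps Hmgxb3.

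Csf1r (ENSMUSG00000024621, chromosome 18) was not called in any of the 8 microglial comparisons or in the interaction. Its values were 9.87, 9.81, 9.88 and 9.88 in DMSO, 9.93, 9.95, 9.94 and 10.01 after T/5z, and 9.75, 9.89, 9.82 and 9.77 after T/S/Z. The T/5z group lay above DMSO by 0.10 (95% interval -0.0038 to 0.20) and the T/S/Z group overlapped DMSO, with a difference of -0.05 (95% interval -0.16 to 0.06). With Nec-1s the values were 10.11, 10.07, 10.04 and 10.07 in T/5z/N and 10.104, 10.16, 10.07 and 10.05 in T/S/Z/N. These 8 libraries held the highest values of Csf1r in the table. The difference of Csf1r with Nec-1s added to T/S/Z was 0.29 (SE 0.06, limma adjusted p = 0.00617), under the fold minimum, and under quantile normalization it was 0.59, past it.

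Tmem119 (chr5:113793729-113800516, minus strand) moved upward, against the direction of the other markers called after T/5z apart from P2ry13. It stood at 3.44, 3.29, 3.51 and 3.03 in DMSO and at 4.69, 4.88, 4.68 and 5.35 after T/5z, with no overlap. The log2 change was 1.58 (SE 0.18, limma adjusted p = 2.50e-04), which is 3.00-fold, and single pairs ranged from 1.17 to 2.32. With T/S/Z it was at 3.31, 3.31, 3.21 and 3.24, within the range of DMSO, a difference of -0.05 (95% interval -0.25 to 0.16). The stimuli differed directly by -1.63 (SE 0.12, limma adjusted p = 6.88e-05).

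Nec-1s moved Tmem119 in opposite directions after the 2 stimuli. In T/5z/N it was at 3.97, 3.97, 3.82 and 4.28, below every T/5z library and above every DMSO library, a change of -0.89 (SE 0.06, limma adjusted p = 1.67e-05) that took back 56.4% of the rise. In T/S/Z/N it was at 4.03, 4.03, 3.98 and 3.89, above every T/S/Z and DMSO library, a change of 0.71 (SE 0.05, limma adjusted p = 2.51e-05). The interaction was -1.61 (SE 0.15, limma adjusted p = 5.79e-06). With Nec-1s, the difference from DMSO was thus near the same value after either stimulus, 0.69 in T/5z/N (SE 0.13, limma adjusted p = 0.00396) and 0.67 in T/S/Z/N (SE 0.08, limma adjusted p = 3.15e-04). The former call was lost without replicate 4 (0.51), with 5 added before the log (0.52) and with the ordinary variance (limma adjusted p = 0.105). With 5 added before the log, the rise in T/S/Z/N was 0.50 from DMSO and 0.54 from T/S/Z, both under the fold minimum.

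Astrocyte and fibroblast or endothelial markers moved with Tmem119 in some of these groups, whereas the sum of oligodendrocyte lineage markers was lower after T/5z. The summed FPKM of 9 astrocyte markers was 6.79 to 9.00 in DMSO, 12.1 to 22.4 after T/5z, 7.98 to 8.90 in T/5z/N, 13.8 to 19.6 after T/S/Z and 4.88 to 6.02 in T/S/Z/N. Of the 6 that were tested, 4 were called higher with T/5z, as were 4 with T/S/Z, beside 11.1% and 12.2% of all genes called higher. None of the 9 had a mean of 0 in DMSO. The sum over 5 listed fibroblast or endothelial markers was 11.1 to 14.1 in DMSO, 13.2 to 21.4 after T/5z, 8.98 to 11.0 in T/5z/N, 7.02 to 9.33 after T/S/Z and 6.03 to 7.74 in T/S/Z/N, and 4 of the 5 tested were called higher and 1 lower after T/5z, the latter beside 13.3% of all genes. In T/S/Z/N the astrocyte marker sum lay below that of T/S/Z while Tmem119 lay above it, and the fibroblast or endothelial sums of these groups overlapped. The 7 listed oligodendrocyte lineage markers summed to 30.6 to 32.6 in DMSO and to 25.6 to 29.6 after T/5z, where Tmem119 rose. Their sums were 26.7 to 30.5 in T/5z/N, 27.5 to 37.7 after T/S/Z and 31.2 to 32.0 in T/S/Z/N. Of the 3 tested, 1 was called lower and 1 higher after T/5z, beside 13.3% and 11.1% of all genes. The part of these cells in the values of Tmem119 was not tested.

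Olfml3 and Sall1 differed by less than the fold minimum in each microglial comparison. Olfml3 (chr3:103731665-103738001, minus strand) stood at 5.65, 5.61, 5.74 and 5.75 in DMSO, at 5.51, 5.54, 5.55 and 5.59 after T/5z and at 5.85, 5.85, 5.86 and 5.95 after T/S/Z. The T/5z libraries lay below and the T/S/Z libraries above all of DMSO, by -0.14 (SE 0.04, limma adjusted p = 0.0309) and 0.19 (SE 0.05, limma adjusted p = 0.00883). With Nec-1s it was at 5.33, 5.38, 5.29 and 5.21 in T/5z/N and at 5.59, 5.63, 5.43 and 5.45 in T/S/Z/N, below the matching stimulus in every library. These differences were -0.25 (SE 0.05, limma adjusted p = 0.00360) and -0.35 (SE 0.06, limma adjusted p = 0.00139).

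Sall1 (chr8:89027235-89044162, minus strand) stood at 1.63, 1.46, 1.49 and 1.64 in DMSO and at 1.54, 1.75, 1.52 and 1.54 after T/5z, which overlapped. With T/S/Z it was at 1.23, 1.28, 1.28 and 1.35, below every DMSO library, a difference of -0.27 (SE 0.08, limma adjusted p = 0.0199). In T/S/Z/N it was at 1.19, 1.12, 1.33 and 1.32, and the difference from DMSO was -0.31 (SE 0.08, limma adjusted p = 0.0166). Near this low level the added 1 in log2(FPKM + 1) compresses fold changes.

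**Figure D2:**
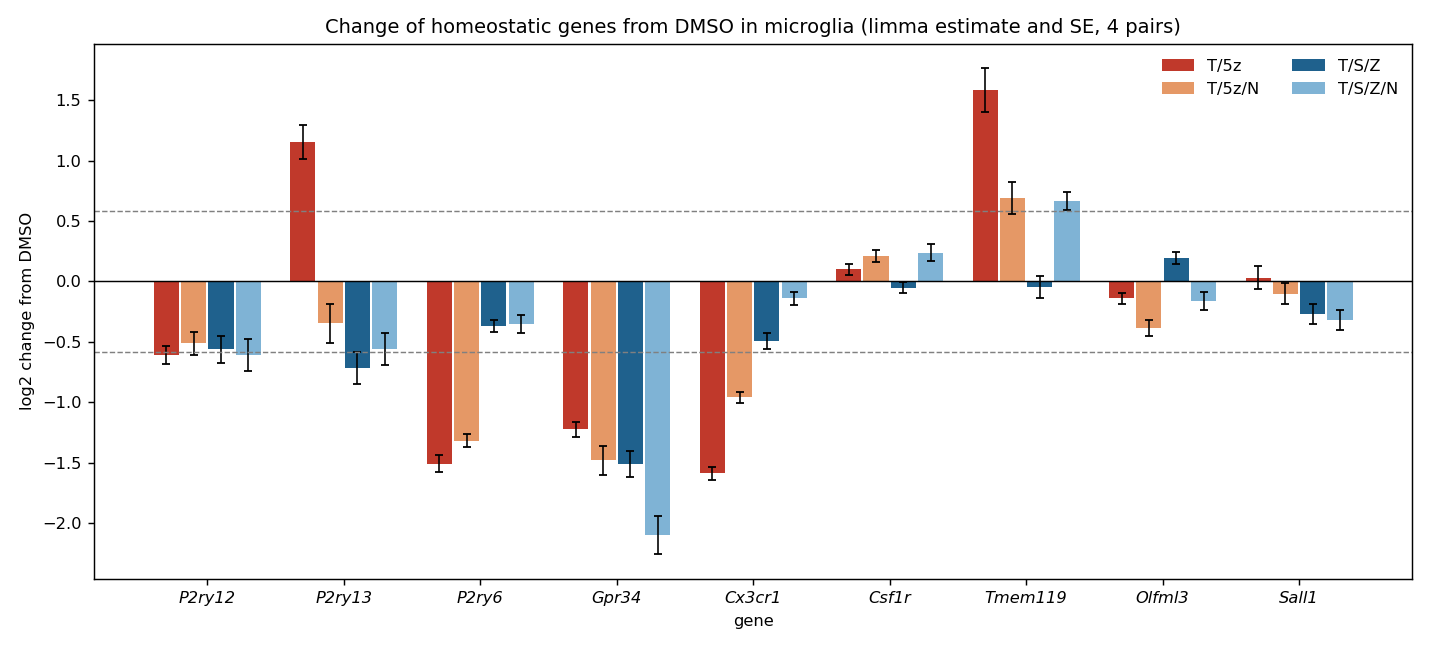
Log2 change from DMSO of the 9 tested genes in microglia after T/5z, T/5z/N, T/S/Z and T/S/Z/N. Bars are limma estimates over 4 replicate pairs, error bars are SEs and dashed lines mark a fold change of 1.5. Gpr34 was lower than DMSO by more than that in all 4 treatments, whereas the bar of P2ry13 pointed upward only after T/5z.

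None of the 9 genes was called in Nec-1s against DMSO, and the estimates ran from -0.02 for Sall1 to 0.15 for Tmem119. In this comparison 0% of the 10524 genes passed in limma, and 892 genes had an unadjusted p under 0.05. Added to T/5z, Nec-1s changed 3 of the 9 genes, lower in P2ry13 and Tmem119 and higher in Cx3cr1, against 7.16% of all genes, 4.52% lower and 2.64% higher. Of all genes called there 36.9% were higher, and 27.2% when libraries were centred on their medians. Added to T/S/Z, it changed 2 of the 9, lower in Gpr34 and higher in Tmem119, against 12.1% of all genes, 6.72% lower and 5.35% higher. After T/S/Z 44.3% of the calls were higher, and 28.9% with median centring. The interaction called 2 of the 9, P2ry13 and Tmem119, against 6.47% of all genes, 2.7% negative and 3.77% positive. Both of these were negative, meaning that the change with Nec-1s was lower when it was added to T/5z than when it was added to T/S/Z.

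**Figure D3:**
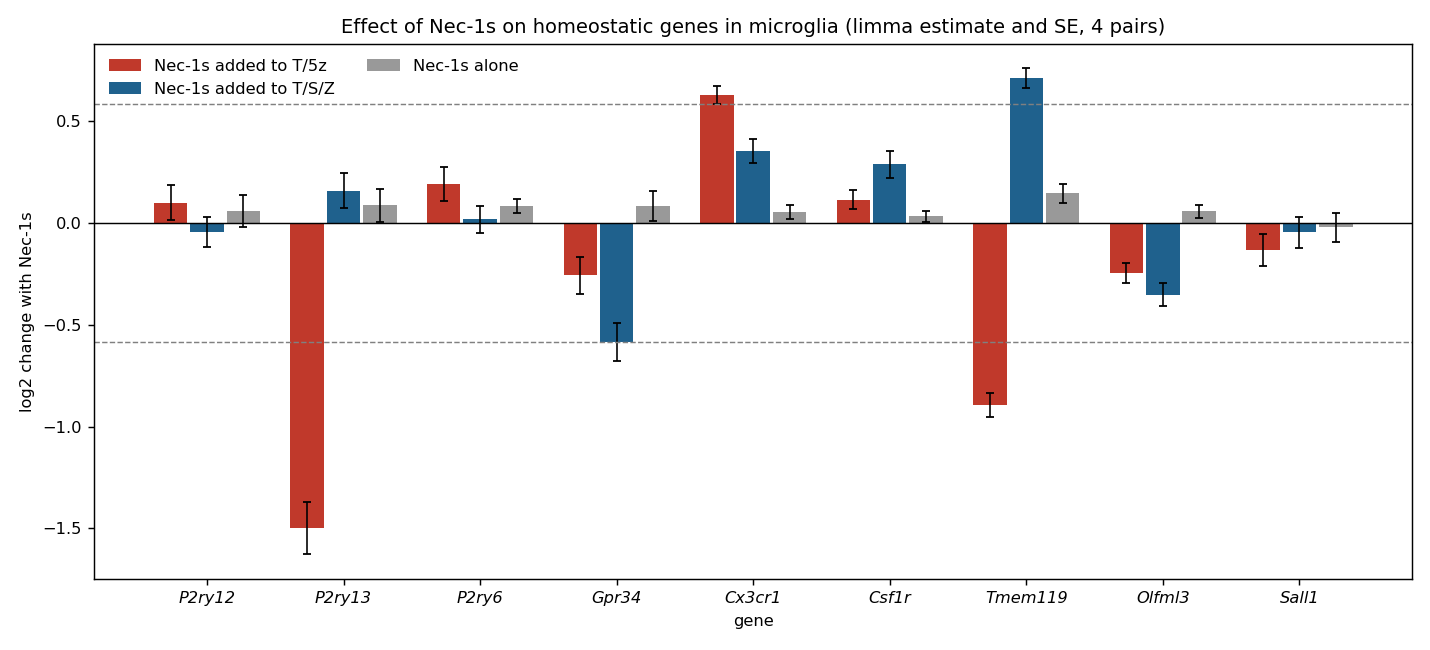
Log2 change with Nec-1s added to T/5z, to T/S/Z or to vehicle for the 9 tested genes in microglia. Bars are limma estimates over 4 replicate pairs, error bars are SEs and dashed lines mark a fold change of 1.5. The bars of P2ry13 and Tmem119 for T/5z pointed down, the bar of Tmem119 for T/S/Z pointed up, and all bars for Nec-1s by itself stayed between -0.02 and 0.15.

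With Nec-1s present, part of the set still differed from DMSO. In T/5z/N against DMSO, 4 of the 9 genes were called, lower in P2ry6 (-1.32), Gpr34 (-1.48) and Cx3cr1 (-0.96) and higher in Tmem119 (0.69), against 12.8% of all genes, 6.69% lower and 6.16% higher. In T/S/Z/N against DMSO, 3 of the 9 were called, lower in Gpr34 (-2.10) and P2ry12 (-0.61) and higher in Tmem119 (0.67), against 14.1% of all genes, 7.87% lower and 6.2% higher. That P2ry12 call rested near the minimum and was lost without replicate 3 (-0.44), with median centring (-0.58), with quantile normalization (-0.49), with 5 added before the log (-0.31) and with the ordinary variance (limma adjusted p = 0.0989). Without replicate 1, P2ry12 in T/5z/N (-0.61) and P2ry13 in T/S/Z/N (-0.65) were past the threshold as well, the latter also without replicate 2 (-0.65). The stimuli compared directly called 4 of the 9, with P2ry13 and Tmem119 lower and P2ry6 and Cx3cr1 higher after T/S/Z than after T/5z, against 9.83% of all genes, 4.42% lower and 5.42% higher.

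Further genes of the homeostatic program were listed for comparison, 34 in all, of which 28 were tested. After T/5z, 12 were called lower (42.9%) and 3 higher (10.7%), beside 13.3% and 11.1% of all genes tested. After T/S/Z, 14 were lower (50%) and 5 higher (17.9%), beside 17.5% and 12.2% of all genes. Hpgd, the enzyme that breaks down prostaglandins, had log2 changes of -2.92 after T/5z (SE 0.11, limma adjusted p = 1.99e-06) and -2.69 after T/S/Z (SE 0.08, limma adjusted p = 2.54e-07). Mertk, a receptor for the uptake of dying cells, fell by 2.38 after T/5z, and Vsir, which encodes the checkpoint protein VISTA, fell by 2.50 after T/S/Z. Rhob (0.71) and Sparc (0.73) rose most on this list after T/5z, and Egr1 (2.61), an immediate early factor, and Cd33 (1.92), an inhibitory lectin, after T/S/Z. Sparc had a mean of 2037 FPKM in the astrocyte cultures given DMSO. The part of astrocytes in its microglial values was not tested. With Nec-1s, 13 of the 28 were lower than DMSO and 0 higher in T/5z/N, beside 6.69% and 6.16% of all genes. In T/S/Z/N, 12 were lower and 3 higher, beside 7.87% and 6.2% of all genes.

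Of 19 tested regulators of microglial identity, 8 were lower (42.1%) and 2 higher (10.5%) after T/5z, and 8 were lower (42.1%) and 3 higher (15.8%) after T/S/Z. The shares called higher were near those over all genes, 11.1% and 12.2%, and the shares called lower stood beside 13.3% and 17.5%. Cebpa, a transcription factor of macrophage differentiation, changed by -2.94 after T/5z and by -2.61 after T/S/Z. Spi1, which encodes PU.1, rose by 0.84 and 0.78 in the same order, and Cebpb, a factor of inflammatory gene expression, by 0.72 and 0.94. With the adjusted p-values of limma these changes ranged from 5.35e-08 for Cebpa after T/S/Z to 0.0078 for Cebpb after T/5z.

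Of 11 tested nucleotide and adenosine signalling genes beyond the 3 P2ry members, 4 were lower (36.4%) and 3 higher (27.3%) after T/5z, and 5 were lower (45.5%) and 3 higher (27.3%) after T/S/Z. Over all genes these shares were 13.3% and 11.1% after T/5z and 17.5% and 12.2% after T/S/Z. The ATP-gated channel gene P2rx7 changed by -1.81 and -1.87 after T/5z and T/S/Z in that order, and Entpd1, the ectoenzyme that removes extracellular ATP and ADP, by -1.18 and -1.04. The adenosine receptor genes Adora2a (4.86 and 3.56) and Adora2b (2.85 and 4.05) rose. Among 9 tested ligands and partners of the 10 genes, none was lower and 2 were higher after T/5z, and 1 was lower and 2 were higher after T/S/Z. Csf1, the ligand of Csf1r, rose by 2.53 and 1.79, Cx3cl1, the ligand of Cx3cr1, by 3.08 and 1.22, and Nrros, which presents TGF-beta on microglia, changed by -0.77 after T/S/Z. Of 15 pan-myeloid markers, 0 were lower and 1 was higher after either stimulus.

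**Figure D4:**
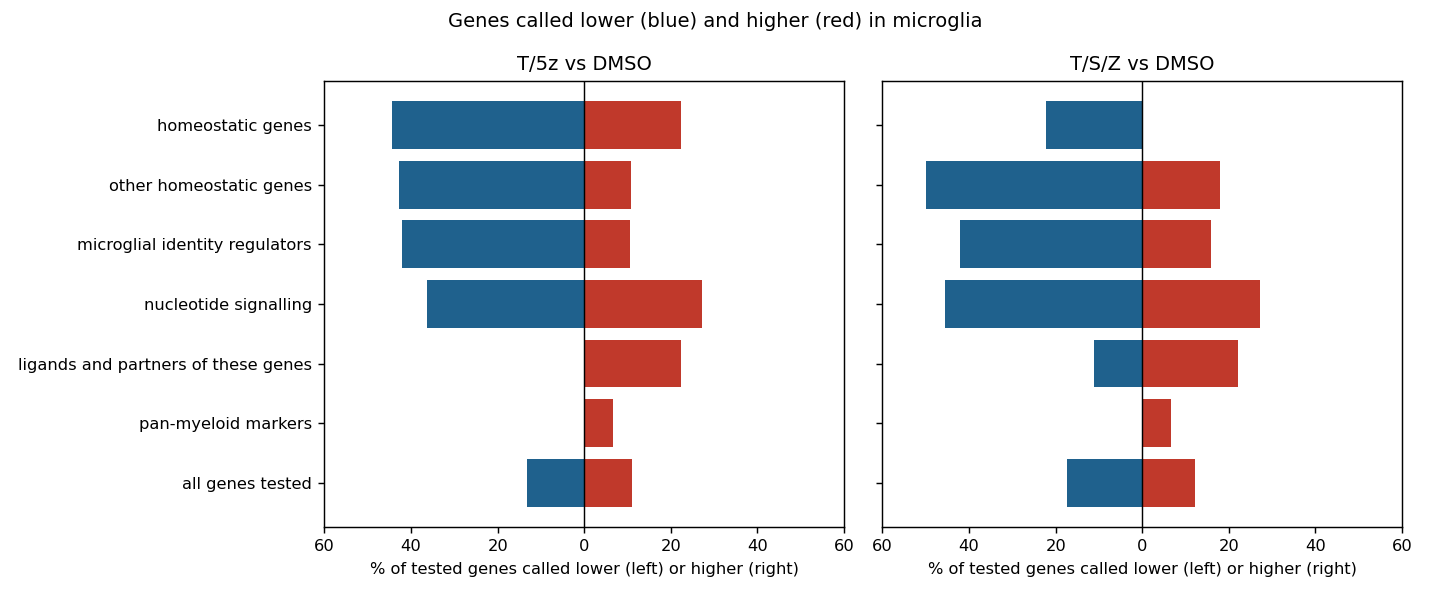
Share of the tested genes of each list that were called lower (blue, left) or higher (red, right) in microglia with T/5z (left panel) or T/S/Z (right panel) against DMSO. The rows named homeostatic genes hold the 9 tested genes, the rows below hold the further lists and the last row holds all 10524 genes tested. Pan-myeloid markers had no bar to the left in either panel.

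Likeness of pattern over the 24 microglial libraries was described by Pearson's r after the mean of each replicate was removed, among genes outside the set. These libraries fall into 6 treatments, and libraries of the same treatment share their group mean. P2ry12 was most like Rnase4 (0.946), Abhd12 (0.935) and Oxct1 (0.933). Cx3cr1 was most like Pitpnc1 (0.970), Gde1 (0.964) and Tpcn2 (0.962). Tmem119 was most like Kdm4a (0.954), Stard7 (0.946) and Birc2 (0.943), and Csf1r was most like Gpr107 (0.966), Csf2rb (0.918) and Mkrn1 (0.904).

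In the astrocyte cultures, the genes split by how much signal they had beside microglia. In DMSO the astrocyte FPKM of Csf1r was 0.689% of the microglial FPKM, that of Cx3cr1 1.15% and that of P2ry6 1.87%. These values lie within the range of 14 pan-myeloid markers, whose shares ran from 0.349% for C1qa to 2.47% for Itgam with a median of 0.777%. P2ry12 (19.3%), Olfml3 (20.1%) and Tmem119 (43.0%) lay above that range, and Sall1 was higher in astrocytes than in microglia (642%). After T/S/Z the range of the pan-myeloid markers was 0.177% to 1.38%. Csf1r (0.429%) and Cx3cr1 (0.471%) lay within it, and P2ry6 (2.33%) lay above it. Microglial and astrocyte tables were normalized separately and came from different sequencing providers per the labels, although the methods name a single provider, so these shares were not tested. P2ry12 was low in both, at 0.82 FPKM in astrocytes, and its 12 astrocyte libraries held 13.5 to 59.7 steps of the scale. Med12l, in which P2ry12 lies, had 1.33 FPKM in the astrocytes given DMSO.

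**Figure D5:**
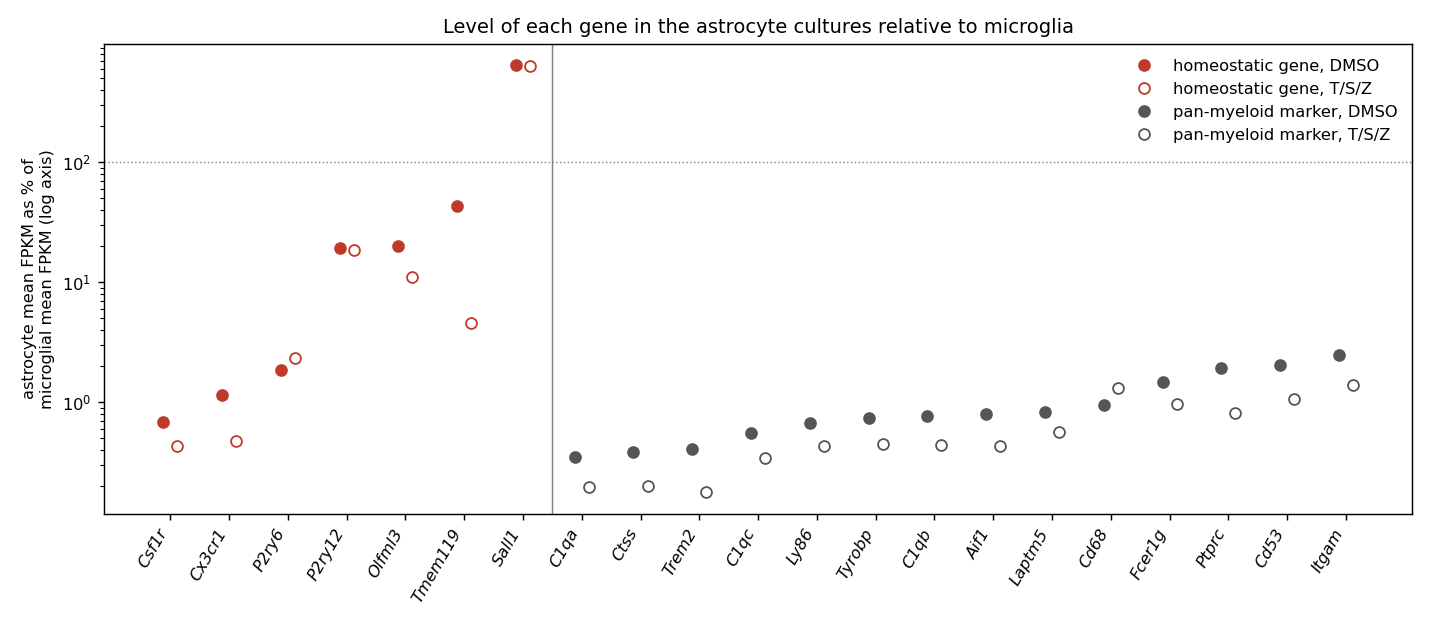
Mean FPKM in astrocyte cultures as a percentage of mean FPKM in microglia on a log axis, for 7 homeostatic genes (red) and 14 pan-myeloid markers (grey), in DMSO (filled) and after T/S/Z (open). The dotted line marks equal levels. Csf1r, Cx3cr1 and P2ry6 in DMSO lay in the range of the pan-myeloid markers, and Sall1 lay above the dotted line.

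T/S/Z lowered 4 of the 6 genes tested in astrocytes, Tmem119, Cx3cr1, Csf1r and Olfml3, and raised none, against 15.4% of all 13842 genes called, 8.99% lower and 6.39% higher. Of all genes called there, 41.5% were higher, and 52.1% under quantile normalization. Tmem119 stood at 2.34, 2.35 and 2.16 in DMSO and at 0.52, 0.43 and 0.49 after T/S/Z, a log2 change of -1.80 (SE 0.11, limma adjusted p = 3.33e-05). Cx3cr1 stood at 1.96, 1.82 and 2.09 and then at 0.98, 0.84 and 0.82, a change of -1.08 (SE 0.11, limma adjusted p = 4.67e-04). In both genes all T/S/Z libraries lay below all DMSO libraries.

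Csf1r stood at 3.02, 2.81 and 2.82 in astrocytes given DMSO and at 2.40, 2.25 and 2.17 after T/S/Z, a change of -0.61 (SE 0.09, limma adjusted p = 0.00257). Olfml3 stood at 3.54, 3.43 and 3.47 and then at 2.81, 2.92 and 2.89, also -0.61 (SE 0.09, limma adjusted p = 0.00248). Neither gene's groups overlapped, and both calls were lost with median centring (both -0.55), under quantile normalization (-0.48 and -0.52) and without replicate 1 (-0.60 and -0.54). P2ry6 (-0.01, 95% interval -0.33 to 0.31) and Sall1 (-0.42, SE 0.12, limma adjusted p = 0.0267) were not called. With the ordinary variance of each gene in place of the moderated one, none of the 4 calls passed, at limma adjusted p-values from 0.0520 to 0.0808. With 5 added before the log, Cx3cr1 (-0.43), Csf1r (-0.36) and Olfml3 (-0.42) fell short of the fold minimum.

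Nec-1s added to T/S/Z raised 2 of the 6 genes in astrocytes, against 3.1% of all genes called, 1.59% lower and 1.51% higher. Cx3cr1 reached 1.73, 1.63 and 1.39 (0.70, SE 0.10, limma adjusted p = 0.0105) and Tmem119 reached 0.92, 1.27 and 1.09 (0.61, SE 0.12, limma adjusted p = 0.0259). Every library with Nec-1s lay above those given T/S/Z by itself and below DMSO. The Cx3cr1 call was lost without replicate 1 (0.67) and without replicate 2 (0.66), and the Tmem119 call without replicate 2 (0.50). Both were lost with 5 added before the log (0.26 and 0.19) and with the ordinary variance (limma adjusted p = 0.220 and 0.286).

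Some markers of other cells in the astrocyte cultures moved along with these genes, beside 8.99% of all genes called lower after T/S/Z and 1.51% called higher with Nec-1s. Pan-myeloid markers summed to 159 to 170 FPKM in DMSO, 106 to 117 after T/S/Z and 147 to 153 in T/S/Z/N, with 6 of 15 called lower after T/S/Z and 2 called higher with Nec-1s. The 4 listed fibroblast or endothelial markers summed to 583 to 599, 106 to 117 and 467 to 469 FPKM, with all 4 called lower after T/S/Z and all 4 called higher with Nec-1s. Astrocyte markers summed to 3250 to 3312 FPKM in DMSO, to 2911 to 3093 after T/S/Z and to 2930 to 2953 in T/S/Z/N, with 2 of 9 called lower after T/S/Z and 0 called higher with Nec-1s. The 7 listed oligodendrocyte lineage markers summed to 100.2 to 117 FPKM in DMSO, 60.3 to 86.9 after T/S/Z and 67.9 to 71.9 in T/S/Z/N, with 2 of 7 called lower after T/S/Z and 0 called higher with Nec-1s. The sums of both lists in T/S/Z/N lay within the range of T/S/Z. The 1 listed neuron marker stood at 54.8 to 68.2 FPKM in DMSO, 34.7 to 41.5 after T/S/Z and 44.8 to 48.5 in T/S/Z/N. It was called lower after T/S/Z and was not called with Nec-1s. The part of these cells in the astrocyte values was not tested.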

How the data were processed

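Gene expression was measured by RNA sequencing in 24 microglial and 12 astrocyte libraries. OmicSoft Array Studio was used by the authors for alignment, quantification and normalization, and the deposited values are log2(FPKM + 1), scaled so that the 75th percentile lay between 4.11 and 4.16 in microglia and between 4.73 and 4.74 in astrocytes. The aligner, build and annotation release are not given in the sources used here. Starts or ends of 9 of the 10 genes equalled those of GENCODE M21 on GRCm38, and coordinates are given on that build. Microglial replicates 1 to 3 had been adjusted to the gene means of replicate 4, which left up to 1438 negative values in a library and which the methods do not describe. The labels name Genewiz for microglial libraries, with strand not stated, and BGI with a strand-specific protocol for astrocytes, whereas the methods name BGI for both. This conflict was not settled.

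Groups were compared 2-sided with limma 3.58.1 in R 4.3.3 (lmFit and eBayes with trend), on the libraries of the compared groups. The replicate number was the block, because the study's comparison was paired. Deviations of same-numbered libraries from their group means correlated with a median of -0.249 in microglia (range -0.458 to 0.257), where the adjustment has removed shared levels, and of 0.041 in astrocytes (-0.144 to 0.411), so the numbers are not shown to pair the astrocyte libraries. For cultured cells the study's general statement on replicates names separate litters, while the labels give replicate numbers only, so p-values measure the spread between these libraries. Genes were tested when log2 was at least 1 in at least 4 microglial or 3 astrocyte libraries, which kept 10524 and 13842 genes. Fold changes on the log2(FPKM + 1) scale understate changes of low genes. Alternatives were no block, 5 added before the log, no or a stricter filter (mean log2 of at least 3), median centring, quantile normalization, ordinary variance, all groups in a single fit, a fold change over 2 and leaving out each replicate.

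The 10 genes and all further lists were chosen with earlier results of these data known. Named genes are the 10, then of each further list the 2 called genes with the largest rise and the 2 with the largest fall after each stimulus, and the 3 genes most like P2ry12, Tmem119, Cx3cr1 and Csf1r in pattern. Genes of the lists that are not reported here on their own still count in list counts and summed marker levels. The script for the tests was tested on simulated data. In the 6 microglial libraries of replicate 4, 71.5% to 72.0% of low values lay within 0.15 of a whole multiple of the step, and 80.6% to 85.7% in astrocytes. Adjusted microglial values of replicates 1 to 3 have no such steps, so their depth is unknown.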

Additional observations from a re-analysis of the deposited data

Results flagged for a closer look

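The effect of Nec-1s differed between the stimuli in 2 genes. For P2ry13 the effect after T/5z minus that after T/S/Z was -1.66 and for Tmem119 it was -1.61, both on the log2 scale and called in the limma interaction. Each pointed the same way in 4 of 4 replicates.

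The values of Olfml3 after T/S/Z lay on opposite sides of DMSO in the cell types. The log2 change was 0.19 in microglia, higher in 4 of 4 pairs but under the fold minimum and so not called. In astrocytes it was -0.61, lower in 3 of 3 pairs and called, and that call was lost with median centring, quantile normalization, ordinary variance, 5 added before the log and without replicate 1. The difference between the cell types was not tested, because the tables were normalized separately.

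In 5 of 60 sets of 4 libraries, 1 library stood apart from the other 3, where about 1 in 20 independent sets would be picked out by chance. The adjustment of replicates 1 to 3 ties the sets of a gene together, so that rate may not hold here. Csf1r after T/5z was 10.01 in replicate 4 and 9.93 to 9.95 in the others. Olfml3 after T/S/Z was 5.95 in replicate 4 and 5.85 to 5.86 in the others. Sall1 was 1.43 in replicate 4 of Nec-1s beside 1.55 to 1.58, 1.75 in replicate 2 of T/5z beside 1.52 to 1.54, and 1.38 in replicate 4 of T/5z/N beside 1.48 in each of the others. None of these groups gave a called change of the gene in microglia.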

How the results depend on the processing

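Without the replicate block, the number of genes of the set called stayed at its value in each of the 11 comparisons, for example 6 in T/5z against DMSO and 2 in T/S/Z against DMSO. In microglia the adjustment had already matched the replicate averages of each gene, so leaving out the block could change little there. Over single genes, 370 alternative values were recorded for 39 changes, each called in the main run or in an alternative. Of these values 321 kept their direction and side of the threshold, 40 fell under it, 9 moved past it and none turned. Changes called only in an alternative enter with that alternative alone. A fold change over 2 and genes dropped by the stricter filter are left out, so this tally is not a rate of stability. The stricter filter removes low genes from the test. With it 3 genes in place of 6 were called in T/5z against DMSO, 0 in place of 2 in T/S/Z against DMSO, 1 in place of 3 in T/S/Z/N against DMSO, and 1 in place of 2 in both T/S/Z/N against T/S/Z and the interaction. With a fold change over 2, 2 in place of 4 were called in T/5z/N against DMSO, 1 in place of 3 in T/5z/N against T/5z, 1 in T/S/Z and 1 in T/S/Z/N against DMSO, and 0 in T/S/Z/N against T/S/Z. Adding 5 before the log, which shrinks low genes, left 1 that was called in T/S/Z against DMSO, 1 in T/S/Z/N against DMSO and 0 in T/S/Z/N against T/S/Z. Quantile normalization called 4 in T/S/Z/N against T/S/Z, and the cause was not tested. Leaving out a replicate gave 1 to 2 called in T/S/Z/N against T/S/Z. The astrocyte comparison of T/S/Z with DMSO called 4, and 1 after 5 was added, 1 with the stricter filter, 2 with median centring, 2 with quantile normalization, 0 with ordinary variance, 2 with a fold change over 2 and 2 to 4 when a replicate was left out. Astrocyte T/S/Z/N against T/S/Z called 2, with 0 after 5 was added, 0 with the stricter filter, 0 with ordinary variance, 0 with a fold change over 2 and 0 to 2 when a replicate was left out. Low levels limit P2ry13, Sall1 and P2ry12, and Siglech could not be tested. They also limit 2 genes in astrocytes after T/S/Z, where every library lay under a log2 of 1. Tmem119 held 17.2 to 22.2 steps of the scale there and Cx3cr1 held 74.5 to 95.9.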
